A study of Mus musculus with 219 samples.

Results

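The 42 genes described here are imprinted in the mouse: in at least some tissues, they are transcribed mainly from the chromosome inherited from the mother or mainly from that inherited from the father. They were chosen by symbol, and each had a single row in both count tables, which hold 32285 genes. Of the 42, 15 are known as maternally expressed, 25 as paternally expressed and 2 (Gnas and Inpp5f) as differing by transcript. Imprints are set in the germline as DNA methylation at control regions, which is kept through the genome-wide demethylation of the preimplantation embryo, while a smaller group of imprints rests on the histone mark H3K27me3 laid down in the oocyte and acts mostly in extraembryonic lineages. Many imprinted genes regulate growth of the embryo and the placenta, and several are known to be sensitive to embryo culture. The libraries here report the total level of each gene from both alleles, so nothing in the counts says which parental allele was read.

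The study injected single sperm heads into oocytes (ICSI) at 3 sites relative to the meiotic spindle. Contralateral ICSI was opposite the spindle (vegetal pole), ipsilateral ICSI next to it (animal pole, called isolateral in the labels) and equatorial ICSI midway. All oocytes were B6C3F1 and all sperm came from CD1 males, from 1 frozen batch, so every embryo came from the cross B6C3F1xCD1 and the same fertilization procedure. Embryos were analysed as separated sister blastomeres of the 2-cell stage, as pairs of twin blastocysts that had been grown individually from separated sister blastomeres, or as intact blastocysts that were never bisected. After the filter on detected genes, 55 2-cell pairs (21 contralateral, 21 ipsilateral, 13 equatorial), 19 twin pairs (6, 7 and 6) and 31 intact blastocysts (11, 8 and 12) were used, and both sisters or twins of an embryo were added to 1 value per embryo in every comparison between groups.

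Library totals ranged from 360474 to 2100561 counts in the blastomeres, from 713410 to 2161062 in the twins and from 234099 to 1254428 in the intact blastocysts. All twin and intact blastocysts were on plate 2, in separate runs of wells, so that bisection and plate position cannot be told apart. Of 5 oocyte markers, all were present in 2-cell embryos, where their sum had a median of 2256 CPM (the count scaled to a common library total), and in both kinds of blastocysts 1 of 5 reached a mean of 1 CPM. All 8 trophectoderm markers and all 6 epiblast markers were detected in both kinds of blastocysts. The 7 cumulus cell markers summed to medians of 7.62 CPM in 2-cell embryos, 2.17 in twins and 0 in intact blastocysts.

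Upstream sequences are shown for 3 members, picked after their values were seen, that had some of the largest differences between twin and intact blastocysts: Mest, which was higher in twins, and Grb10 and Ascl2, which were lower. Each line gives the 250 bases before a RefSeq transcription start (GRCm38.p6, 5′ to 3′ on the gene's strand), and capitals mark TGCCGC or its complement GCGGCA, the core letters bound by ZFP57, a zinc finger protein that protects methylated imprints.
Mest, chr6:30737800-30738049, plus strand: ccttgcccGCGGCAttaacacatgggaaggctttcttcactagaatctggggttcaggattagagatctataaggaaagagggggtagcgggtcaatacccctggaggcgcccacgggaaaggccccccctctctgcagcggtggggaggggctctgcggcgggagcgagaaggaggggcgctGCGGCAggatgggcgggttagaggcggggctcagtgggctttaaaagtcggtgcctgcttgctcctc
Grb10, chr11:12037421-12037670, minus strand: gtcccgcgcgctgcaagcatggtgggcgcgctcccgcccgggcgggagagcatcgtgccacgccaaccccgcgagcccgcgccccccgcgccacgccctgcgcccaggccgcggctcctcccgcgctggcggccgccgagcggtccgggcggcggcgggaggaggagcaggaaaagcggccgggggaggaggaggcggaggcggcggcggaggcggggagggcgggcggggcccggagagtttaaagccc
Ascl2, chr7:142969265-142969514, minus strand: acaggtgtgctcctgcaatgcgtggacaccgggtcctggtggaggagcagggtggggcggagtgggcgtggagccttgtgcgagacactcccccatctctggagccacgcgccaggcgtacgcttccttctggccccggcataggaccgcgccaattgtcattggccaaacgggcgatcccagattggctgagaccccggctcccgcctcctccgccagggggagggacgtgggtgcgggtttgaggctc
The Mest stretch held 14 CpG and 2 matches, the Grb10 stretch 40 CpG and 0 matches, and the Ascl2 stretch 19 CpG and 0 matches. For a gene with several starts, the start with the most CpG was shown. The CpG counts are thus high by choice and cannot be weighed against the median over all starts. Another Mest start held 7 CpG and 0 matches, and another Grb10 start 8 CpG and 0 matches. Over all 32851 RefSeq starts in the table, the 250 upstream bases held a median of 6 CpG, and 8.68% of them held the letters at least once. The 35 members in the table had 56 starts, of which 7 held them (12.5%), and 2 of these were the overlapping stretches of Mest. A match is a description of the letters, and 0 matches says only that they are not in this window.

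Which imprinted genes were read at all differed by stage. In blastomeres, 25 of 42 members had a count in 50% or more of the 110 libraries, against 34 of 42 in the 38 twins and 33 of 42 in the 31 intact blastocysts. A count in every library was found for 4 members in blastomeres (Ube3a, H13, Gnas and Inpp5f), 20 in twins and 14 in intact blastocysts. These numbers were not adjusted for library totals, the number of libraries or the change from 1 cell to a whole blastocyst. Over the 42 members, the median share of libraries with a count was 78.2% in blastomeres, 94.7% in twins and 91.9% in intact blastocysts. With each library thinned to 200000 counts it was 65.8%, 84.4% and 86.3% in that order. Maternally expressed members were detected in a median of 84.5% of blastomere libraries and paternally expressed members in a median of 40%. At the 50% cut the numbers were close between ICSI sites: 25, 25 and 24 members reached it in blastomeres after contralateral, ipsilateral and equatorial ICSI, 34, 35 and 37 in twins, and 31, 36 and 35 in intact blastocysts. Members with a count in every intact library numbered 19, 28 and 17 in that order of sites. The lowest totals of these intact libraries were 234099, 531176 and 249597 counts.

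Some members lacked any count. H19, a noncoding RNA of the Igf2 locus, and Peg13, a noncoding RNA within Trappc9, had 0 counts in 110 blastomeres, which allows a level of up to 0.0204 CPM at 3 counts of the total. Dlk1, a transmembrane relative of the Notch ligands, had 0 counts in the 38 twins (up to 0.0688 CPM), and Zim1, a zinc finger gene of the Peg3 domain, had 0 in the 31 intact blastocysts (up to 0.136 CPM). These limits cover counting error only. Members at a mean of 10 CPM or more numbered 24 in 2-cell embryos, 26 in twin and 29 in intact blastocysts. On a scale per transcript length (TPM, mean over libraries), the leading members were Phlda2 (313), Mcts2 (168) and Blcap (83.9) in blastomeres, Snrpn (192), Mcts2 (157) and H19 (128.9) in twins, and H19 (474.5), Phlda2 (309.7) and Slc38a4 (145.5) in intact blastocysts.

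**Figure D1:**
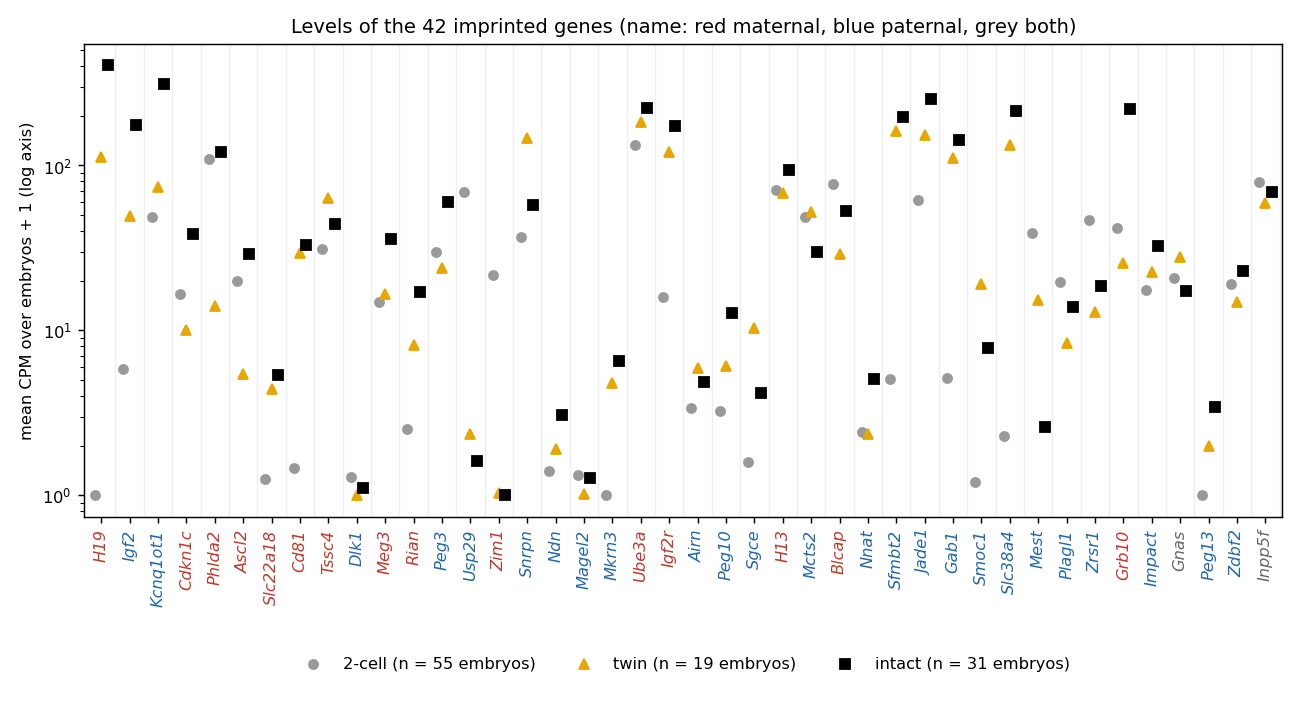
Mean CPM plus 1 (log axis) of each of the 42 imprinted genes over 55 2-cell embryos (grey circles), 19 twin embryos (yellow triangles) and 31 intact blastocysts (black squares), with gene names coloured by the parental allele known to be expressed. H19, Sfmbt2, Gab1 and Slc38a4 sit low in 2-cell embryos and above 100 CPM in both kinds of blastocysts, whereas Usp29 and Zim1 are seen almost only in 2-cell embryos.

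Added per parental class, the 15 maternally expressed members summed to 594 TPM ± 129.5 (SD, n = 55) in 2-cell embryos, 436 ± 104.8 (n = 19) in twins and 1237 ± 470 (n = 31) in intact blastocysts. The 25 paternally expressed members summed to 369.6 TPM ± 119.01 in 2-cell embryos, 703 ± 73.2 in twins and 723 ± 151 in intact blastocysts. The maternal sum of the 19 twin embryos ran from 220.4 to 651 TPM and that of the 31 intact blastocysts from 558 to 2812, so that the ranges overlapped at their edge. The paternal sums of twins (469 to 820.0) lay within those of intact blastocysts (381 to 1010). Phlda2 had means of 313, 32.4 and 309.7 TPM in blastomeres, twins and intact blastocysts, and H19 had 0, 128.9 and 474.5 TPM. The maternal sum thus rests largely on Phlda2 in blastomeres and on both genes in intact blastocysts. In twins most of it came from other members. These sums are given as levels and were not tested.

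In 2-cell embryos, the ICSI site was compared over 29 members that passed the filter on low counts, with the plate as a covariate. Mest, which encodes a hydrolase of the endoplasmic reticulum and is expressed from the paternal allele, was the member called after each polar ICSI against equatorial ICSI. Its level per embryo had a lowest value of 0, a median of 42.8 and a highest of 91.1 CPM after contralateral ICSI (n = 21), 7.43, 47.98 and 96.5 after ipsilateral ICSI (n = 21), and 1.15, 11.4 and 37.6 after equatorial ICSI (n = 13). The groups overlapped, but with both plates pooled 15 of 21 contralateral and 13 of 21 ipsilateral embryos lay above the highest equatorial embryo. All 13 equatorial embryos lay below the pooled median of either polar group.

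Mest was higher after contralateral than equatorial ICSI by 1.77 ± 0.41 on the log2 scale (SE, edgeR quasi-likelihood test, adjusted p = 0.00162) and higher after ipsilateral than equatorial ICSI by 1.70 ± 0.41 (adjusted p = 0.00550). It was 1 of 29 members called in each of these comparisons, where 13.2% and 6.65% of the 13141 tested genes were called. Within plate 1 alone the Mest differences were 1.86 (adjusted p = 0.00210) and 1.98 (adjusted p = 0.00451). On plate 2 the means were 53.9 CPM in 3 contralateral, 35.3 in 8 ipsilateral and 19.02 in 2 equatorial embryos. The 2 equatorial embryos of plate 2 had 1.15 and 36.9 CPM, and the higher of them lay above the plate 2 ipsilateral median of 34.3. Equatorial libraries were also shallower, with a median of 1108741 counts against 1297280 and 1530273, and with depth and detected genes as covariates the ipsilateral difference was 1.28 (adjusted p = 0.203) and the contralateral one 1.36 (adjusted p = 0.0417). Of the exonic bases of Mest, 23.1% are shared with Copg2 on the opposite strand, and the counting did not use strand. Copg2 differed by -0.02 ± 0.16 (adjusted p = 0.969) and by -0.16 ± 0.17 (adjusted p = 0.672) in the contralateral and ipsilateral comparisons. Its part in the Mest counts was not tested.

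**Figure D2:**
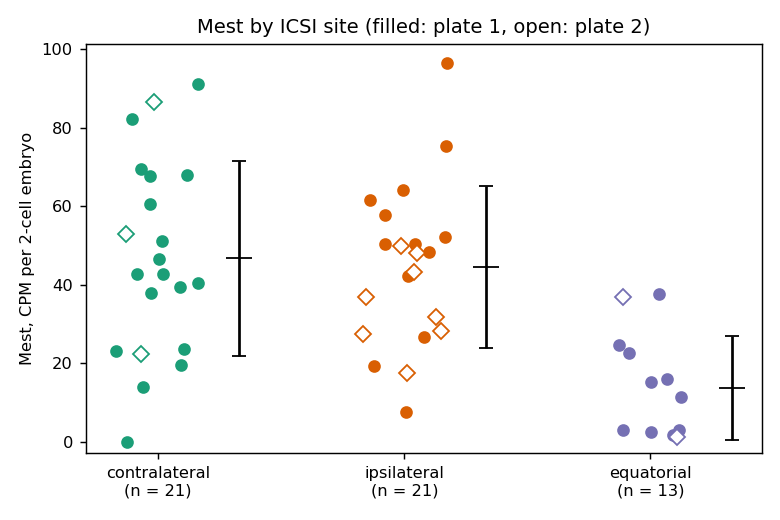
CPM of Mest in each 2-cell embryo (points, both sisters added) by ICSI site, with filled circles for plate 1, open diamonds for plate 2 and the mean ± SD beside each group. The 13 equatorial embryos lie between 1.15 and 37.6 CPM, below the median of both polar groups with plates pooled.

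The other members gave no call by this test in the main setting. At an unadjusted p below 0.05, Blcap and Jade1 joined Mest in the contralateral comparison, and Jade1, Peg10 and Gnas in the ipsilateral one. The share of all genes at this threshold is not given here, and 13.2% and 6.65% of genes passed even the adjusted one. The members at this threshold were thus not read as a result about imprinted genes. Jade1, a chromatin reader subunit whose imprint rests on H3K27me3, had medians of 55.2, 45.3 and 78.0 CPM after contralateral, ipsilateral and equatorial ICSI, with differences of -0.76 ± 0.31 (adjusted p = 0.0902) and -0.76 ± 0.32 (adjusted p = 0.149) on the log2 scale against equatorial ICSI. Blcap, which shares its locus with the imprinted Nnat, had medians of 69.8, 68.4 and 95.4 CPM, with -0.58 ± 0.21 (adjusted p = 0.0522) and -0.43 ± 0.22 (adjusted p = 0.277). Over the 29 members, the median difference was -0.12 in the contralateral and 0.01 in the ipsilateral comparison, against medians of -1.46e-04 and 0.01 over all tested genes. By the rank-sum test, Jade1 was called in both comparisons and Blcap in the contralateral one. DESeq2 called Blcap in the contralateral and Gnas in the ipsilateral comparison. Plate 1 alone gave Blcap in both and Gnas in the ipsilateral one. Plate 2, with only 2 equatorial embryos, had the opposite order of means for both genes. Blcap was highest after equatorial ICSI on plate 1. On plate 2 its means were 62.6 CPM in 3 contralateral, 83.8 in 8 ipsilateral and 52.3 in 2 equatorial embryos. Gnas had means of 24.2 CPM after ipsilateral and 11.8 after equatorial ICSI on plate 1, against 21.4 and 29.7 on plate 2. With every gene kept, Blcap, Dlk1, Slc22a18, Slc38a4 and Smoc1 were called in the contralateral comparison and Slc38a4 in the ipsilateral one. Of these, Dlk1 and Slc22a18 each had a count in 1 of 26 equatorial and 0 of 42 contralateral libraries. Smoc1 had one in 1 of 42 contralateral and 0 of 26 equatorial libraries. Slc38a4 had one in 5 of 42 contralateral, 6 of 42 ipsilateral and 0 of 26 equatorial libraries. The share of all genes called in these alternatives is not given here.

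Between contralateral and ipsilateral ICSI, edgeR called 0 of 29 members and 0 of 13141 genes (0%). At an unadjusted p below 0.05, 0 members and 555 genes passed, and DESeq2 and the rank-sum test also called 0 members. With every gene that had a count kept, 2 of 40 members were called, where 6.32% of all genes were called. The interval of the Mest difference ran from -0.58 to 0.71 on the log2 scale (95%), and that of Phlda2 from -0.24 to 0.53. For scarce members the intervals were wide, as for Sfmbt2, from -3.04 to 1.61.

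Twin and intact blastocysts differed in most of the imprinted genes that could be tested. Of 32 members, 25 were called, 7 higher and 18 lower in twins, where 40.7% of the 10689 tested genes were called, 20.1% higher and 20.6% lower. The maternally expressed members were nearly all lower, with 11 of 13 called lower and 1 higher, and a median log2 difference of -1.26. The paternally expressed members were mixed, with 7 of 17 called lower and 5 higher, and a median of -0.62. The median over all tested genes was 0.00. With depth covariates on the added twins, 17.5% of all genes were called, in a fit that cannot separate depth from bisection. The members called were then the maternally expressed Grb10, Phlda2 and Ube3a and the paternally expressed Igf2 and Kcnq1ot1. None of the 32 had separate ranges of CPM in the 19 twin embryos and 31 intact blastocysts, and 0.393% of all tested genes did. In whole blastocysts, fewer cells of a type and less RNA per cell cannot be told apart.

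**Figure D3:**
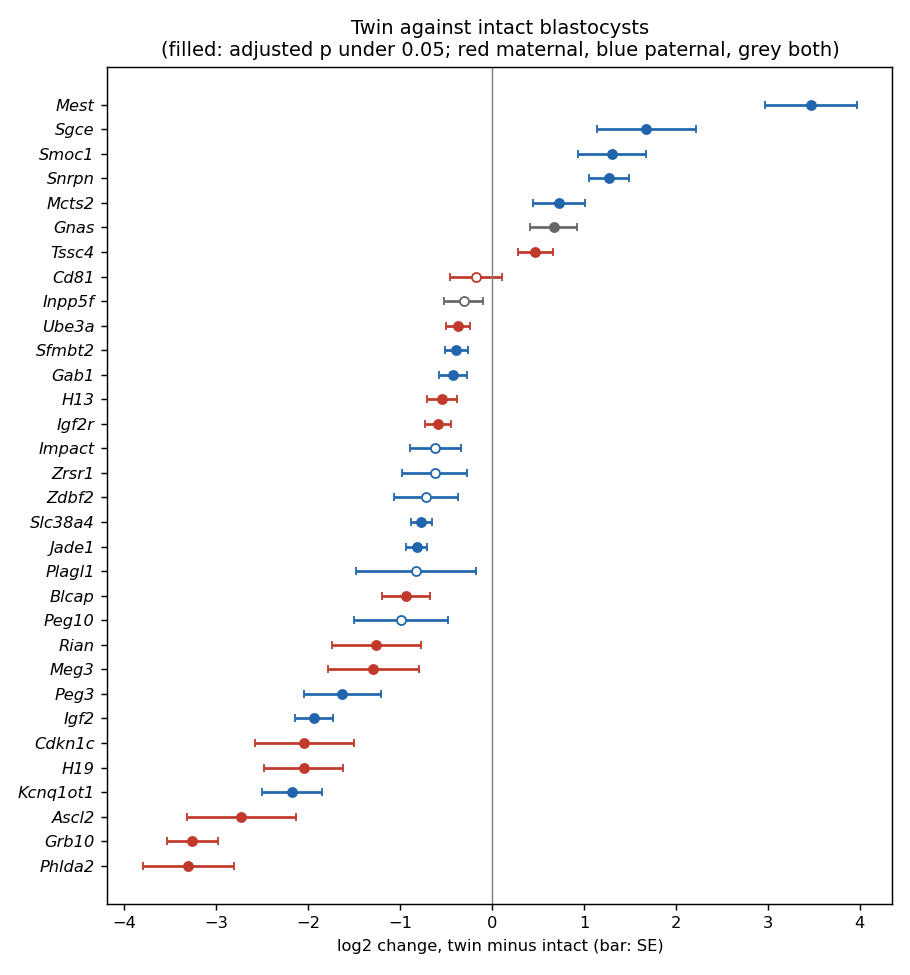
Log2 difference between twin and intact blastocysts (points, bar for the SE; edgeR, mean of the 3 ICSI sites) for the 32 tested members, red for maternally expressed, blue for paternally expressed and grey for both, filled where the adjusted p was below 0.05. Phlda2, Grb10 and Ascl2 have the lowest estimates and Mest the highest, and among the maternally expressed members only Tssc4 lies above 0.

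Libraries and cell type markers moved with bisection as well. The added twins had about the depth of 2 libraries, and single intact libraries had a median of 705837 counts against 1093478 for a single twin. A single twin had at least 713410 counts and an intact library at most 1254428. Every added pair of twins thus had a higher total than every intact library. Of the 8 trophectoderm markers, 1 was called higher and 5 lower in twins, and their summed level ran from 3183 to 3964 CPM in twins (median 3618) and from 3268 to 6897 in intact blastocysts (median 4220). Of the 6 epiblast markers, 5 were called higher and 0 lower, with sums from 251 to 512 CPM (median 367) against 28.05 to 312 (median 134). The 5 primitive endoderm markers gave 1 call in each direction, with sums from 281 to 499.6 CPM (median 409) in twins and from 58.5 to 576 (median 325) in intact blastocysts. No marker of these lists was at 0 in either group. The part of lineage markers in the differences of the imprinted genes was not tested. Depth was fitted as a covariate in alternatives given below, which cannot fully separate it from bisection.

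The Igf2-H19 domain on chromosome 7 was lower in twins in both of its members. H19 (chr7:142575529-142578143) had a lowest value of 1.93, a median of 106.5 and a highest of 319.5 CPM in twin embryos and 0, 418 and 1181 in intact blastocysts. All 19 twin embryos lay below the intact median, and the fitted difference was -2.05 ± 0.43 (adjusted p = 1.44e-04). Igf2, the growth factor read from the paternal allele, had 22.1, 45.7 and 74.96 CPM in twins and 25.2, 151 and 417 in intact blastocysts, a difference of -1.94 ± 0.21 (adjusted p = 3.26e-11). The maternally expressed H19 and the paternally expressed Igf2 thus moved in the same direction. Igf2r, the receptor that clears IGF2, was lower by a smaller amount, with 81.4, 118.2 and 168 CPM against 73.9, 158 and 353 and a difference of -0.59 ± 0.14 (adjusted p = 5.43e-04). Of these genes, H19 and Igf2r were not called with depth covariates on the added twins.

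In the neighbouring Kcnq1 domain the maternally expressed growth regulators were among the most reduced genes. Phlda2, a pleckstrin homology protein that restrains placental growth, had 0, 10.7 and 57.3 CPM in twins and 0, 90.7 and 410.4 in intact blastocysts. Every twin embryo was below the intact median, and the difference of -3.30 ± 0.49 (adjusted p = 5.43e-07) was the lowest estimate of the 32 members. Ascl2, a transcription factor of the trophoblast, had 0, 1.52 and 16.6 CPM against 0, 16.9 and 112, with -2.73 ± 0.59 (adjusted p = 1.86e-04).

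Cdkn1c, an inhibitor of cyclin-dependent kinases, had 0, 7.34 and 27.8 CPM in twins against 0, 16.8 and 263 in intact blastocysts, a difference of -2.04 ± 0.54 (adjusted p = 0.00205). Its exons share 30.7% of their bases with Gm44732 on the other strand, which had no counts. Kcnq1ot1, the paternally expressed noncoding RNA that silences the domain in cis, was also lower, with 26.6, 62.4 and 137 CPM against 11.96, 214 and 1014 and a difference of -2.18 ± 0.33 (adjusted p = 7.12e-07). It was counted over a single exon of 93092 bases that lies within Kcnq1 on the other strand, and Kcnq1 itself had a mean of 0.0798 CPM in twins and 0 in intact blastocysts. Cd81, a tetraspanin at the edge of the domain, had medians of 29.3 and 30.1 CPM and a difference of -0.18 ± 0.28 (adjusted p = 0.650, interval from -0.73 to 0.38). Tssc4, a splicing-related protein, was higher in twins by 0.47 ± 0.19 (adjusted p = 0.0430), with medians of 65.5 and 38.99 CPM. Neither Cdkn1c nor Tssc4 was called with depth covariates on the added twins.

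Grb10, an adaptor that dampens signalling from the insulin and IGF1 receptors, gave the smallest adjusted p of the list. It had 3.80, 22.8 and 50.1 CPM in twins and 20.9, 217 and 445 in intact blastocysts, and 7 of the 19 twin embryos were below the lowest intact blastocyst. The difference was -3.26 ± 0.27 (adjusted p = 3.80e-14), about a 9.57-fold lower level. The median of 2-cell embryos was 39.6 CPM, between the medians of twins and intact blastocysts, with overlapping ranges.

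Mest had the highest estimate of the 32 tested members. In twins it had a lowest value of 0.543, a median of 13.99 and a highest of 31.8 CPM, whereas the intact blastocysts had 0, 0 and 10.3. A count was found in 92.1% of twin libraries and in 38.7% of intact libraries, and 12 of 19 twin embryos were above the highest intact blastocyst. The difference was 3.47 ± 0.50 (adjusted p = 7.48e-08). Copg2 on the other strand was higher in twins too, by 0.66 ± 0.20 (adjusted p = 0.00626), with means of 57.2 and 34.98 CPM.

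Snrpn, a core protein of the spliceosome in the Prader-Willi domain, had 82.9, 146 and 207 CPM in twins against 6.30, 52.4 and 144 in intact blastocysts, a difference of 1.27 ± 0.22 (adjusted p = 2.75e-06). Of its exonic bases, 27.3% are shared with Snurf and Gm38393 on the same strand, where Snurf had no counts. Ube3a, the ubiquitin ligase of the same domain that is maternal in neurons, was lower in twins, with a difference of -0.37 ± 0.13 (adjusted p = 0.0173), with medians of 171.5 and 242 CPM. Of its exonic bases, 8.74% are shared with Snhg14 on the other strand. Snhg14 had means of 35.2 and 49.7 CPM and a difference of -0.58 ± 0.27 (adjusted p = 0.0799), and its part in the Ube3a counts was not tested. The other members of the domain, Ndn, Magel2 and Mkrn3, had means between 0.0170 and 5.51 CPM in the blastocysts and did not pass the filter.

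**Figure D4:**
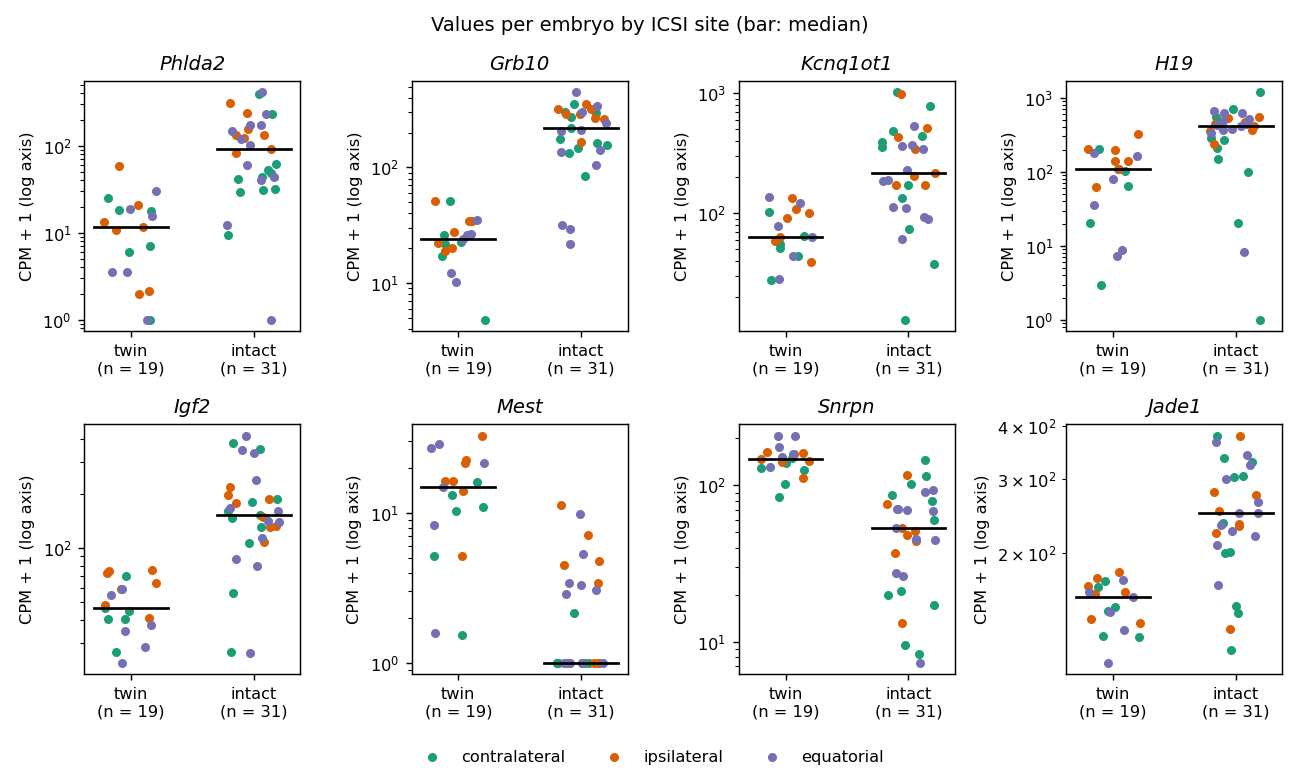
CPM plus 1 (log axis) of 8 members in each twin embryo (n = 19) and each intact blastocyst (n = 31), coloured by ICSI site, with a bar at the median. All twin embryos lie below the intact median for Phlda2, Grb10, Kcnq1ot1, H19, Igf2 and Jade1, and all lie above it for Mest and Snrpn, while the ranges overlap in every panel.

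Of the genes whose imprint rests on H3K27me3, 4 were lower and 1 was higher in twins, and none of the 5 was called with depth covariates on the added twins. With 1 twin per pair and depth covariates, Jade1 and Slc38a4 were called with the twin of either letter. Slc38a4, a neutral amino acid transporter, was lower in twins with 96.0, 128.5 and 171 CPM against 115.4, 202 and 457 (difference -0.77 ± 0.12, adjusted p = 2.86e-07). Jade1 had 109.1, 157 and 179.5 CPM against 117.2, 248 and 379 (difference -0.82 ± 0.12, adjusted p = 5.11e-08). Sfmbt2, a polycomb protein of the trophoblast, and Gab1, a signalling adaptor, were lower by less, with differences of -0.39 ± 0.13 (adjusted p = 0.00982) and -0.43 ± 0.15 (adjusted p = 0.0209), and the estimate of Gab1 was 0.43 with depth covariates. Smoc1, a secreted calcium-binding protein, was higher in twins by 1.31 ± 0.37 (adjusted p = 0.00318), with medians of 16.8 and 5.61 CPM.

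In the Dlk1-Meg3 domain the maternally expressed noncoding RNAs Meg3 and Rian were both lower in twins. Meg3 had 1.93, 5.37 and 89.9 CPM in twins and 0, 20.1 and 206 in intact blastocysts (difference -1.29 ± 0.49, adjusted p = 0.0310), and Rian had 0, 5.72 and 23.4 against 0, 9.46 and 82.8 (difference -1.26 ± 0.49, adjusted p = 0.0321). The estimates for Rian were -2.12, -2.14 and 0.48 after contralateral, equatorial and ipsilateral ICSI, which made it the exception among the 25 called members, as the other 24 had the same sign at every site. Peg3, a zinc finger protein of the paternal allele, had 3.80, 16.6 and 65.96 CPM against 0, 40.8 and 167 (difference -1.63 ± 0.42, adjusted p = 0.00140). Meg3, Rian and Peg3 were not called with depth covariates on the added twins, nor with the twin of letter a and depth covariates.

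Some neighbours had estimates of opposite sign, though the signs of H13, Mcts2 and Sgce were reversed under depth covariates. H13, a signal peptide peptidase, was lower in twins, with a difference of -0.54 ± 0.16 (adjusted p = 0.00452), whereas Mcts2, the paternally expressed retrogene in its intron, was higher by 0.73 ± 0.28 (adjusted p = 0.0329). With depth covariates the estimates of H13 (0.32), Mcts2 (-0.84) and Sgce (-3.80) changed sign and none of these genes was called. Mcts1, the expressed parent copy of Mcts2 with which reads can be shared, differed by 0.33 ± 0.19 (adjusted p = 0.164). Blcap was lower, with -0.94 ± 0.26 (adjusted p = 0.00321). Sgce, the epsilon sarcoglycan beside Peg10, was higher by 1.68 ± 0.54 (adjusted p = 0.00912), with a count in 94.7% of twin and 35.5% of intact libraries, whereas Peg10, a retrotransposon-derived gene of the placenta, had -0.99 ± 0.51 (adjusted p = 0.118). Gnas, the stimulatory G protein alpha subunit, was higher by 0.67 ± 0.25 (adjusted p = 0.0290), and 21.96% of its exonic bases are shared with antisense genes. Blcap and Gnas were not called with depth covariates on the added twins either.

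Of the remaining tested members, Impact had -0.62 ± 0.28 (adjusted p = 0.0681), Zdbf2 -0.71 ± 0.35 (adjusted p = 0.0933), Zrsr1 -0.62 ± 0.35 (adjusted p = 0.156), Inpp5f -0.31 ± 0.21 (adjusted p = 0.253) and Plagl1 -0.83 ± 0.65 (adjusted p = 0.322). Zrsr2, the expressed copy of Zrsr1 with which reads can be shared, was lower in twins, with a difference of -0.56 ± 0.16 (adjusted p = 0.00344). The 10 members that did not pass the filter were Slc22a18, Dlk1, Usp29, Zim1, Ndn, Magel2, Mkrn3, Airn, Nnat and Peg13, with means of at most 5.51 CPM in either kind of blastocyst.

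The list changed with the account taken of depth. With log2 total and detected genes as covariates, 5 of 32 members were called, all lower in twins (Grb10, Igf2, Kcnq1ot1, Phlda2 and Ube3a). In that fit 17.5% of all genes were called, so that the share of members was no longer above that of all genes. Totals of added twins and intact blastocysts did not overlap, so this fit cannot separate depth from bisection. With 1 twin per pair, so that depth was not doubled, and the same covariates, 11 of 34 members were called with the twin of letter a, where 22.2% of all genes were called, and 15 of 34 with that of letter b, where 24.6% were called. This alternative was chosen after the data were seen. The 11 called with letter a, namely Ascl2, Grb10, H19, Igf2, Jade1, Kcnq1ot1, Mest, Phlda2, Slc38a4, Snrpn and Ube3a, were also called with letter b. Mest had a difference of 1.90 (adjusted p = 0.489) in the first of these settings and of 2.61 and 2.43 in the other two.

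The difference between twin and intact blastocysts was also fitted within each ICSI site. In each site 10 of 32 members were called, 2 higher and 8 lower in twins, where 17.8%, 10.9% and 13.6% of all tested genes were called after contralateral, ipsilateral and equatorial ICSI. Grb10, Igf2, Jade1, Kcnq1ot1, Mest and Phlda2 were called at all 3 sites. Grb10 had estimates of -3.26, -3.33 and -3.18 and Phlda2 of -3.03, -3.33 and -3.55 in that order of sites. Mest had 5.18, 2.35 and 2.88, and a count for it was found in 9.09% of the 11 intact contralateral libraries against 62.5% of 8 ipsilateral and 50% of 12 equatorial ones. By the interaction test the dependence on site was called for 0 of 32 members and 0 of 10689 genes (0%), with 1 member (Rian) and 246 genes at an unadjusted p below 0.05, and DESeq2 also called 0 members.

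Between the 3 ICSI sites, twin blastocysts gave 0 of 32 members and 0 of 10689 genes called by edgeR (0%), with 0 members and 41 genes at an unadjusted p below 0.05. Intact blastocysts gave 0 of 32 members, where 0.0842% of genes (9) were called. In the latter, Mest had the smallest p of the members (adjusted p = 0.158), with medians of 0, 2.95 and 0.935 CPM after contralateral, ipsilateral and equatorial ICSI. Cd81, Peg10, Sgce and Slc38a4 were the other members at an unadjusted p below 0.05, and the share of all genes at that threshold is not given here. DESeq2 called 0 members in twins and 0 in intact blastocysts. The 2-cell order of Mest by site was not repeated in twins, which had medians of 9.65, 15.3 and 17.2 CPM after contralateral, ipsilateral and equatorial ICSI with overlapping ranges.

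Whether twins of the same embryo were alike was asked for each member. In the twins, the mean absolute log2 difference between the 2 sisters of an embryo was compared with that between blastocysts of different embryos of the same ICSI group. The ratio of the first to the second was below 1 for 17 of 28 members tested, with a median of 0.944, and for 63.9% of all 9773 genes, with a median of 0.947. The lowest ratios among members that passed the filter were those of Phlda2 (0.676), H19 (0.695) and Gnas (0.739), and the highest those of Impact (1.21), Gab1 (1.20) and H13 (1.17). The edgeR test of differences between embryos called 0 of 28 members, where 0.911% of genes (89) were called. At an unadjusted p below 0.05 it gave 3 of 28 members, where 1086 of 9773 genes passed, a similar share. The 3 were Phlda2 (adjusted p = 0.178), H19 (adjusted p = 0.205) and Meg3 (adjusted p = 0.373).

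Twins also differed in whether a scarce member was read. Ascl2 had a count in both twins of 2 pairs, in a single twin of 12 pairs and in neither twin of 5 pairs. Phlda2 had a count in both twins of 13 pairs and in a single twin of 4. Mest had one in both twins of 16 pairs and in a single twin of 3, with a mean difference between twins of 2.07 on the log2 scale against 1.91 between unrelated blastocysts.

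In sister blastomeres the ratio was below 1 for 15 of 26 members (median 0.979) and for 73.3% of all 11712 genes (median 0.925). The edgeR test of differences between embryos within ICSI group and plate called 0 of 26 members, where 10.8% of genes were called. At an unadjusted p below 0.05 it gave 2 of 26 members, where 2443 of 11712 genes passed, a larger share. The 2 were Jade1 (adjusted p = 0.192) and Phlda2 (adjusted p = 0.208). Sisters that shared an embryo differed in Ube3a by a mean of 0.468 and in Kcnq1ot1 by 2.38 on the log2 scale, close to the 0.505 and 2.50 between blastomeres of different embryos. Airn, the noncoding RNA that silences Igf2r, was read in a single sister of 30 pairs and in both sisters of none.

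**Figure D5:**
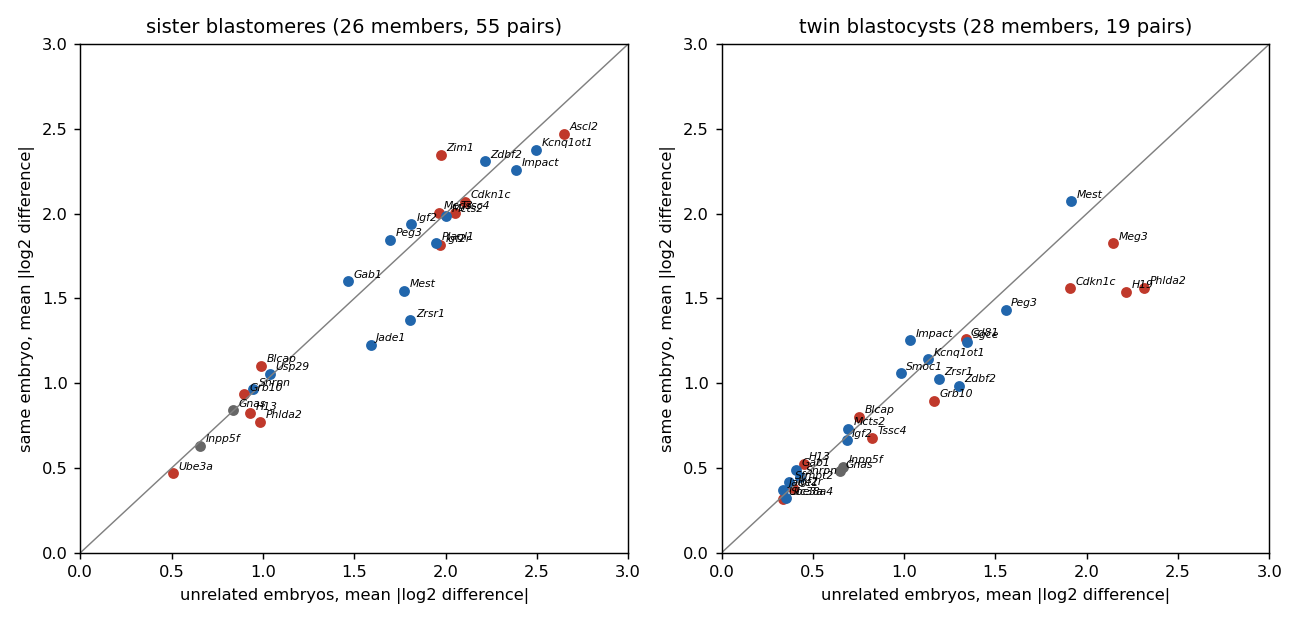
Mean absolute log2 difference of CPM plus 1 between libraries of the same embryo (vertical) and between libraries of different embryos of the same ICSI group and plate (horizontal) for the tested members, in 55 pairs of sister blastomeres and 19 pairs of twin blastocysts (red maternally, blue paternally expressed, grey both; line of equality). Most members lie close to the line, and in twins Phlda2 (1.56 against 2.31) and H19 (1.54 against 2.21) lie furthest below it.

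Between the 2-cell stage and the intact blastocyst, the comparison was made within plate 2, with 13 2-cell embryos and 31 intact blastocysts. Of 28 members tested, 15 were called, 3 higher and 12 lower in 2-cell embryos, where 75.6% of the 10292 genes were called, 37.7% higher and 37.9% lower. Counts in part of the 31 intact blastocysts were enough to pass the filter on low counts. A gene read only in 2-cell embryos had to pass it in nearly all 13. The split by direction was thus shaped by the filter and was not read as a result about the members. Slc38a4 had a mean of 0.351 CPM in 2-cell embryos and 214 in intact blastocysts (difference -8.87 ± 0.48, adjusted p = 3.02e-22), and Cd81 0.0559 and 31.8 (difference -7.53 ± 0.62, adjusted p = 1.26e-15). Sfmbt2 (-6.05 ± 0.62), Igf2 (-4.60 ± 0.46), Gab1 (-4.07 ± 0.55), Igf2r (-3.98 ± 0.41), Rian (-3.51 ± 0.80), Kcnq1ot1 (-3.12 ± 0.53), Grb10 (-2.39 ± 0.32), Jade1 (-1.84 ± 0.26) and Ube3a (-0.48 ± 0.18) were lower in 2-cell embryos too. Snhg14, which shares exonic bases with Ube3a, differed by -4.02 ± 0.49 (adjusted p = 3.15e-10). H19, with 0 counts in the 13 2-cell embryos, was at least 5607-fold lower than its intact mean of 403 CPM, taking 3 counts over the group as the floor. The genes higher in 2-cell embryos were Zrsr1, a spliceosome-related retrogene (1.41 ± 0.47, adjusted p = 0.00611), Gnas (0.92 ± 0.35, adjusted p = 0.0153) and Blcap (0.84 ± 0.35, adjusted p = 0.0297). Phlda2 differed between these stages by 0.22 ± 0.36 (adjusted p = 0.590).

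Members of the Peg3 domain other than Peg3 itself were read mainly at the 2-cell stage but did not pass this filter. It asked for a minimum CPM, set from the library totals, in nearly as many samples as there were 2-cell embryos. Usp29, a relative of the ubiquitin-specific proteases, had 3.45, 65.1 and 84.9 CPM in the 13 2-cell embryos and a median of 0 with a highest value of 8.42 in intact blastocysts, and Zim1 had 9.62, 29.9 and 74.9 against no counts, at least 239-fold higher. Of the exonic bases of Usp29, 14.3% are shared with Zim3 on the other strand, at a mean of 0.440 CPM in 2-cell embryos. With every gene kept, Usp29 was higher in 2-cell embryos by 5.93 ± 0.50 (adjusted p = 1.16e-15) and Mest by 4.795 ± 0.58 (adjusted p = 3.12e-10).

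The proteins that establish or protect imprints were described from a list of 24 genes. After contralateral against equatorial ICSI, 1 of 24 was called higher and 4 lower in 2-cell embryos, where 13.2% of all genes were called in either direction. They included Ctcf, the insulator protein (-0.36 ± 0.07, adjusted p = 3.50e-04), Trim28, the corepressor recruited by ZFP57 (-0.63 ± 0.14, adjusted p = 0.00106), and Dppa3, which shields the maternal genome from demethylation (0.25 ± 0.09, adjusted p = 0.0454). After ipsilateral against equatorial ICSI, 0 were called higher and 2 lower, where 6.65% of all genes were called. In twins against intact blastocysts, 8 of 23 tested were higher and 3 lower, where 20.1% of all genes were higher and 20.6% lower. Dppa3 was higher in twins by 2.89 ± 0.32 (adjusted p = 1.06e-09), with means of 556 and 88.9 CPM, and Khdc3, a maternal factor of the subcortical complex, by 1.44 ± 0.20 (adjusted p = 1.04e-07). Dnmt3l, the cofactor of the de novo methyltransferases, was lower, with a difference of -0.85 ± 0.17 (adjusted p = 3.68e-05). Zfp57 itself had means of 8.97 and 5.29 CPM and a difference of 0.64 ± 0.44 (adjusted p = 0.244).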

How the data were processed

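Single blastomeres and single blastocysts were sequenced as full-length, unstranded SMART-Seq libraries without molecular identifiers. Per the submitters' processing notes, the authors used Trimmomatic (version 039), FastQC (0.12.1), STAR (2.7.10b), GRCm38 and GENCODE, and deposited counts per gene, taken from the version of their matrix in which duplicate reads had been collapsed by position. That collapse can lower the counts of short, abundant genes.

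Blastomeres with at least 9500 and blastocysts with at least 4000 detected genes were kept, and the counts of both sisters or twins were added. Groups came from the labels. edgeR (4.0.16, quasi-likelihood, TMM, its filter on low counts, R 4.3.3) was fitted over all genes with Benjamini-Hochberg adjustment and a threshold of 0.05, with the plate as a covariate in 2-cell embryos. Fits were tested on simulated data. CPM values are counts scaled to a common library total, and log2 differences between libraries used a pseudocount of 1 CPM. The alternatives were DESeq2 (1.42.0), RLE size factors, no filter, depth covariates, plate 1 alone, a rank-sum test and others. Each embryo was taken as a replicate.

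The members and lists were chosen with earlier results of these data known. Members tested and called are described with values, as are those with a mean of at least 10 CPM. Precision is limited by library totals. The 95% intervals of log2 differences come from the edgeR fit and include the spread between embryos, whereas the limits for genes without counts cover counting error only. Reads cannot be assigned to a parental allele. Gene positions came from an annotation of the same build, which held 32235 of the 32285 genes.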

Additional observations from a re-analysis of the deposited data

Results flagged for a closer look

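In 7 of 100 tested groups of 4 to 10 embryos, 1 embryo lay far from the others of its group. The rule flags about 1 in 20 groups by chance only if values are normally distributed. CPM of scarce genes need not be, and all flags but that of Snrpn were high values. The number of flags was thus not weighed against chance. Groups of different genes share embryos, so the flags are not independent. Among intact blastocysts after ipsilateral ICSI (n = 8), 1 had 985 CPM of Kcnq1ot1 against 170.0 to 513 in the others. Another had both 145 CPM of Cdkn1c against 8.57 to 33.7 and 22.7 CPM of Smoc1 against 1.75 to 10.8. Among twin embryos after ipsilateral ICSI (n = 7), 1 had 57.3 CPM of Phlda2 against 0.976 to 20.2, and 1 had 110.3 CPM of Snrpn against 139 to 162. A twin embryo after equatorial ICSI (n = 6) had 15.9 CPM of Ascl2 against 0 to 3.96, and a twin embryo after contralateral ICSI (n = 6) had 89.9 CPM of Meg3 against 1.93 to 22.3.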

How the results depend on the processing

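Counts of called members moved with the processing as follows, and the cause was not tested. Most are given without the share of all genes called in the same setting, so they describe the processing and not the members. For contralateral against equatorial ICSI (1 member), DESeq2 called 2, every gene with a count 6, plate 1 alone 2 and the rank-sum test 3. For ipsilateral against equatorial ICSI (1), DESeq2 called 2, depth covariates 0, every gene 2, plate 1 alone 3 and the rank-sum test 2. For contralateral against ipsilateral ICSI (0), every gene gave 2. For twin against intact blastocysts (25), depth covariates gave 5, and with 1 twin per pair and depth covariates, chosen after seeing the data, letter a gave 11 and letter b 15. Over all genes, depth covariates gave 1867 calls against 4353. With depth covariates the estimates of H13 (0.32), Mcts2 (-0.84), Sgce (-3.80) and Gab1 (0.43) changed sign, none of them called, as did Mcts2 (-0.022) with letter b and depth covariates. For 2-cell embryos against intact blastocysts (15), both plates gave 26 and every gene 24. For differences between embryos (0 members), every gene gave 7 in twins and 10 in 2-cell embryos. Dropping the filter also changed which members and genes were tested, so these counts were not read as embryo effects in the members. Of the other settings for twin against intact blastocysts, 1 twin per pair gave 20 and 22, DESeq2 26, RLE size factors 25, every gene 20 and the deeper intact libraries alone, also chosen after seeing the data, 25. No paired analysis was possible because the groups compared share no embryo numbers.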
